A study of Mus musculus with 7 samples.

Results

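The subunits of respiratory complex I that are encoded in the nucleus were examined in the dorsal skin of aged mice. The members were every protein-coding gene of the deposited counts whose mouse symbol begins with Ndufa, Ndufb, Ndufc, Ndufs or Ndufv, without the assembly factors (Ndufaf), the pseudogenes and the copies marked -ps. This rule gave 38 genes of the 55450 in the counts. All 38 were counted in every mouse and entered the test, which covered 17959 genes. Apart from the assembly factors, the rule left out 5 genes, which are pseudogenes or copies marked -ps.

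Bulk RNA sequencing was performed on whole-skin homogenate of 7 wild type C57BL/6 male mice aged 24 months, with 1 library per mouse. In both groups the back was clipped and depilated, and for 5 days the skin received a daily topical application under a semi-occlusive dressing. The control group of 4 mice (480, 481, 482 and 483) received DMSO, the vehicle, and the treated group of 3 mice (476, 477 and 478) received 5 µM ABT-263 (navitoclax), which inhibits anti-apoptotic proteins of the Bcl-2 family and is used to kill senescent cells. The labels name no batch, and the RNA extraction kit they name differs from the one in the methods.

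Complex I (NADH:ubiquinone oxidoreductase) is the entry point of the mitochondrial respiratory chain. It takes electrons from NADH at the tip of an arm in the matrix (the N module), passes them along iron-sulfur clusters to ubiquinone at the base of that arm (the Q module), and pumps protons through an arm in the inner membrane (the modules named after ND1, ND2, ND4 and ND5). A set of core subunits, shared with bacteria, carries out the catalysis, and accessory subunits surround them. The core subunits of the membrane arm are encoded in mitochondrial DNA and are not analysed here, because mitochondrial genes were left out of the counts by the authors. In skin, complex I serves all cell types, and skeletal muscle, which lies beneath the dermis of the mouse back, is especially rich in it.

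The start regions of the members are shown first, because the letters bound by YY1, a factor known to act on genes of the respiratory chain, stood at the same place in several of them. RefSeq promoters (GRCm38.p6, 250 bases before to 50 bases after the start of the transcript) were at hand for 33 of the 38 members. The letters AAGATGGCG, searched on both strands, occurred in 5 of the 33 (15.2%). They occurred in 1.64% of all 27025 genes with a promoter of the same length and in 3.02% of those tested. In all 5 members the match lay on the strand of the gene, and its ATG was the annotated start codon. Capitals mark the letters searched, and each stretch is read 5′ to 3′ on the strand of the gene.
Ndufa9: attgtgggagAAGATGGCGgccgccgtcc
Ndufc1: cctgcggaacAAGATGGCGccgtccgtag
Ndufs4: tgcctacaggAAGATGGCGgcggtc
Ndufs6: ggtcaccggcAAGATGGCGgcggtgct
Ndufs7: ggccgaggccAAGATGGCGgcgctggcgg
These stretches lie at chr6:126849097-126849125 on the minus strand (Ndufa9), chr3:51408915-51408943 on the minus strand (Ndufc1), chr13:114388045-114388069 on the minus strand (Ndufs4), chr13:73328433-73328459 on the minus strand (Ndufs6) and chr10:80249463-80249491 on the plus strand (Ndufs7). Each runs from the 5′ untranslated region into the first codons.

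Other letters were searched in the same way. GCGCATGCG (NRF1) occurred in 2 of the 33 members, Ndufa8 and Ndufa11 (6.06%, against 1.95% of all genes with a promoter and 3.52% of those tested). CCGGAAGT (GABPA) occurred in 1, Ndufs3 (3.03%, against 4.31% and 7.85%), and AAGGTCA (estrogen-related receptors) in 3, Ndufb2, Ndufb4 and Ndufs5 (9.09%, against 5.38% and 4.15%). The match in Ndufa8 lay 9 bases before the start of the transcript, at chr2:36049329-36049357 on the minus strand, and that in Ndufb4 lay 55 bases before it, at chr16:37654407-37654433 on the minus strand. Both are shown as examples of letters outside the coding sequence. GCGCATGCG reads almost the same on both strands, and the match in Ndufa8 is on the strand opposite to the gene.
Ndufa8: tcgctggagaCGCATGCGCagatggtacc
Ndufb4: cctgagcctgAAGGTCAgactcgagag
A match describes letters only and was not taken as a binding site.

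The libraries held 20344364 to 43562330 counts, and those of the ABT-263 mice were all larger than those of the DMSO mice. The complex I subunits took 0.593% to 1.06% of all counts, and the lowest count of any of them in any mouse was 289. Keratinocyte markers, which define the labelled tissue, summed to 18431 CPM or more in every mouse. CPM are counts scaled to the size of each library by TMM. P-values are two-sided, from edgeR's quasi-likelihood test, with Benjamini-Hochberg adjustment over all genes tested and a threshold of 0.05, and they measure the spread between these mice.

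Transcripts of complex I were lower in ABT-263-treated skin in all 6 modules, and no subunit rose. Of the 38 genes, 27 fell (71.1%), while 11.7% of all genes tested did. None rose, at the adjusted or at an unadjusted p of 0.05 in edgeR or at the adjusted p in DESeq2, while 12.4% of all genes tested rose in edgeR. The log2 fold change (ABT-263 over DMSO) was negative in 37 genes (97.4%; 49.9% of all genes tested) and positive only in Ndufs1. The median over the subunits was -0.68, against 0.0022 over all genes tested. Every ABT-263 mouse lay under every DMSO mouse in 32 genes (84.2%), which was the case for 18.4% of all genes tested. A fall past the threshold and over 2-fold was seen in 10 genes (26.3%; 5.18% of all genes tested).

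**Figure D1:**
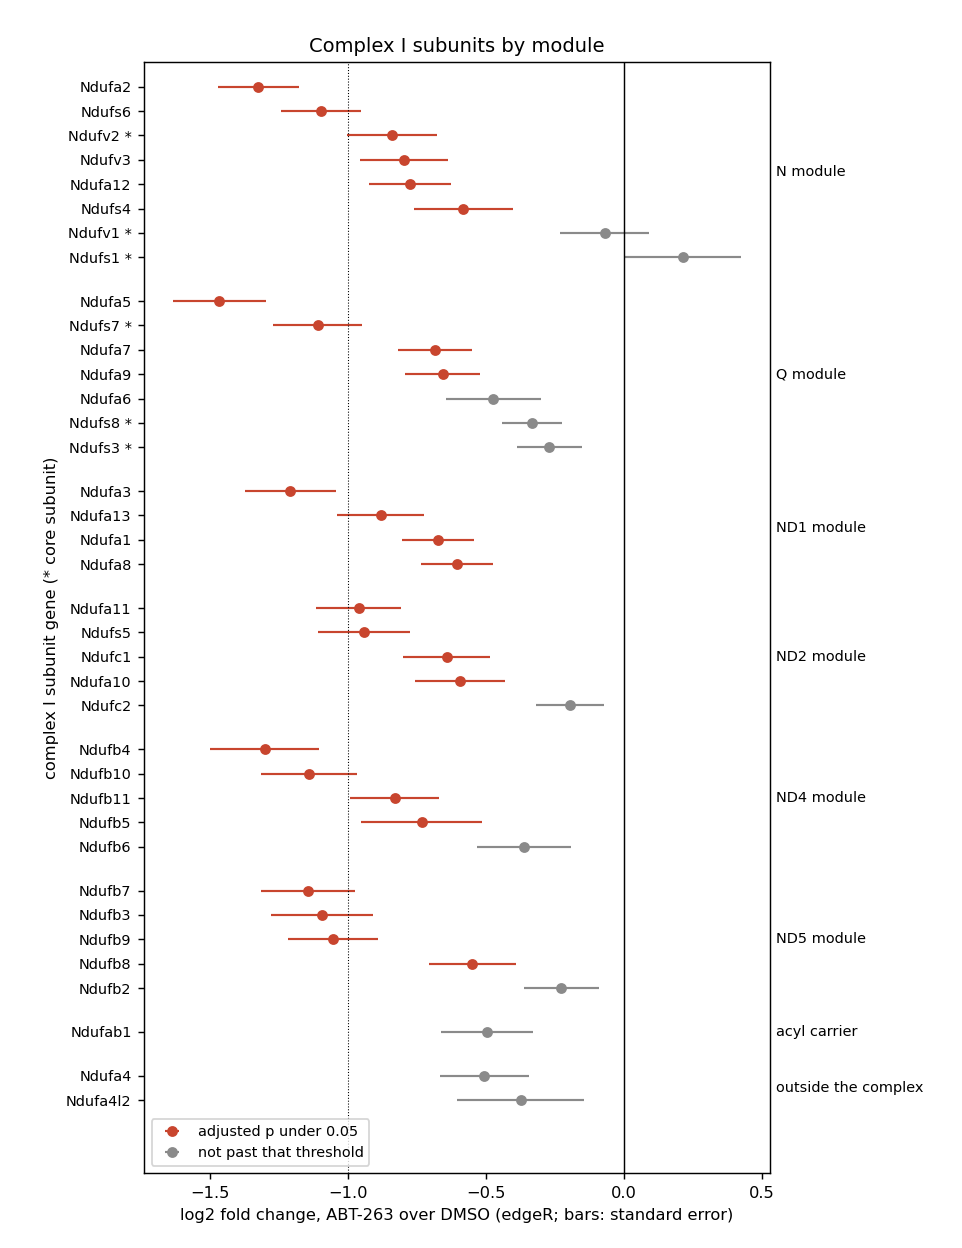
Log2 fold change (x axis, ABT-263 over DMSO, edgeR) of complex I subunits (y axis, by module, core subunits with an asterisk). Points are estimates, bars standard errors, and red points have an adjusted p under 0.05. The values run from -1.47 for Ndufa5 to 0.21 for Ndufs1, the only point right of 0, and the dotted line marks -1.

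Summed over the 38 genes, the level was 8797, 9528, 11113 and 10993 CPM in DMSO mice 480, 481, 482 and 483. In ABT-263 mice 476, 477 and 478 the sum was 5797, 6251 and 5779 CPM. The groups did not overlap, and the mean of the treated mice (5942 ± 268, SD, n = 3) was 58.8% of that of the controls (10107.5 ± 1132, SD, n = 4). In bulk tissue, fewer cells of a type and less RNA per cell cannot be told apart. Mouse 480 had the lowest level of the DMSO mice in 29 of the 38 genes, while mouse 482 the highest in 18 and mouse 483 in 16. Among the ABT-263 mice, 477 was the highest in 24 genes and 478 the lowest in 17.

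The number that fell depended on single mice, as did the share of all genes tested that fell. Leaving out ABT-263 mouse 478 left 17 genes called (4.17% over all genes), and leaving out DMSO mouse 480 raised the number to 30 (11.9%). Without mouse 476 or 482 it was 19 (5.99% and 5.50%), and without 483 it was 20 (6.07%). Without 477 it was 21 (9.33%) and without 481 it was 23 (8.11%), and no member rose in any of these 7 fits. The median stayed between -0.74 and -0.64. Of the 27 genes, 17 kept their call in all 15 fits, those that left out a mouse and 8 others. They included Ndufa2, Ndufa5, Ndufa3, Ndufb4, Ndufb7, Ndufs7 and Ndufv2. The other 10 lost it in at least 1 fit with a mouse left out. Ndufv3 and Ndufa7 lost it without 478, Ndufa9 without 482, 476 or 478, and Ndufa8 without 482, 483, 476 or 478. Ndufa10 and Ndufc1 lost it without any mouse but 480 and 481, and Ndufs4, Ndufb5 and Ndufb8 without any mouse but 480. The largest adjusted p reached was 0.123, for Ndufs4.

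The N module holds the site of NADH oxidation. Of its 8 genes, 6 fell, with a median log2 fold change of -0.79. Ndufv1, the core subunit that binds NADH and the flavin, had 217, 293, 281 and 296 CPM in DMSO mice 480 to 483 and 250, 236 and 290 CPM in ABT-263 mice 476 to 478. The groups overlapped throughout, and the log2 fold change was -0.07 ± 0.16 (SE) with an adjusted p of 0.774. Ndufv2, the core subunit next to it, carries an iron-sulfur cluster. Its level was 316, 388, 446 and 441 CPM in the DMSO mice and 217, 226 and 222 CPM in the ABT-263 mice. All treated mice lay below all controls, and it fell by 0.84 ± 0.16 on the log2 scale (adjusted p = 0.0129).

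Ndufs1, the largest core subunit, holds several iron-sulfur clusters and was the highest of the module in fold change. It had 65.8, 113, 102 and 105 CPM in the DMSO mice and 102, 95.9 and 136 CPM in the ABT-263 mice. Mouse 480 was low and mouse 478 high, the other 5 mice lay close together, and the log2 fold change was 0.21 ± 0.21 (adjusted p = 0.489). It was positive in each fit with a mouse left out, from 0.047 to 0.33. Ndufa2, an accessory subunit with a thioredoxin-like fold that touches Ndufs1, was the lowest of the module in fold change. Its values were 391, 443, 444 and 462 CPM in the DMSO mice and 181, 186 and 153 CPM in the ABT-263 mice. The groups were far apart, and Ndufa2 fell by 1.33 ± 0.15 (adjusted p = 0.00578), to 39.9% of the DMSO mean.

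The remaining accessory subunits of the N module also fell. Log2 fold changes were -1.10 for Ndufs6, a zinc-binding subunit, -0.80 for Ndufv3, -0.78 for Ndufa12, which takes the place of the assembly factor Ndufaf2 in the finished complex, and -0.58 for Ndufs4, whose loss causes a Leigh-like encephalopathy in mice. Ndufs4 was the closest to the threshold (adjusted p = 0.0483). All 4 had no overlap between the groups, and Ndufs6 alone among them passed 2-fold. Part of Ndufs6 (14.6% of its 50-base stretches) and of Ndufa12 (26.2%) is shared with other transcripts. Reads within those stretches may not align uniquely, which was not examined, so their levels are uncertain.

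The Q module binds ubiquinone. Of its 8 genes, 5 fell, and the median was -0.65. Ndufs7, a core subunit at the ubiquinone site that holds the last iron-sulfur cluster of the chain, had 307, 353, 421 and 423 CPM in the DMSO mice and 170, 183 and 169 CPM in the ABT-263 mice. The treated mice lay close together and far below the controls, and the fall was 1.11 ± 0.16 (adjusted p = 0.00707).

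The core subunits Ndufs3 and Ndufs8 of this module did not pass the threshold. Ndufs8, a carrier of iron-sulfur clusters, had 133, 133, 146 and 139 CPM in the DMSO mice and 109, 110 and 108 CPM in the ABT-263 mice. The treated mice were all lower, with a small difference (log2 fold change -0.33 ± 0.11, adjusted p = 0.0575). DESeq2 and the fit on protein-coding genes alone called it lower (adjusted p of 0.0324 and 0.0436). Ndufs3, the highest of the module in fold change, had 71.6, 84.1, 80.2 and 86.3 CPM against 64.7, 65.2 and 70.2 CPM. The lowest control and the highest treated mouse nearly met, and the log2 fold change was -0.27 ± 0.12 (adjusted p = 0.121). Ndufs3 shares 35.8% of its 50-base stretches with other genes, and reads within those stretches may not align uniquely.

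Ndufa5, an accessory subunit of the Q module (ENSMUSG00000023089, chr6:24518666-24528013 on GRCm38), had the largest fall of all 38 genes. It was at 263, 313, 370 and 354 CPM in the DMSO mice and at 114, 131 and 108 CPM in the ABT-263 mice. All treated mice lay far below the lowest control, and Ndufa5 fell by 1.47 ± 0.17 (adjusted p = 0.00578), to 36.1% of the DMSO mean. Ndufa7 (-0.69) and Ndufa9 (-0.66), which binds a nucleotide near the ubiquinone site, also fell. Ndufa6, one of the LYR-motif subunits that hold the acyl carrier protein, stood at -0.47 on the log2 scale, with an adjusted p of 0.0764. Its lowest DMSO mouse, 480 (131 CPM), lay among the treated mice, and without mouse 480 its adjusted p was 0.0178. With Ndufa6 and Ndufa7 counted in the N module, as some assignments have it, the medians were -0.73 for N and -0.65 for Q.

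**Figure D2:**
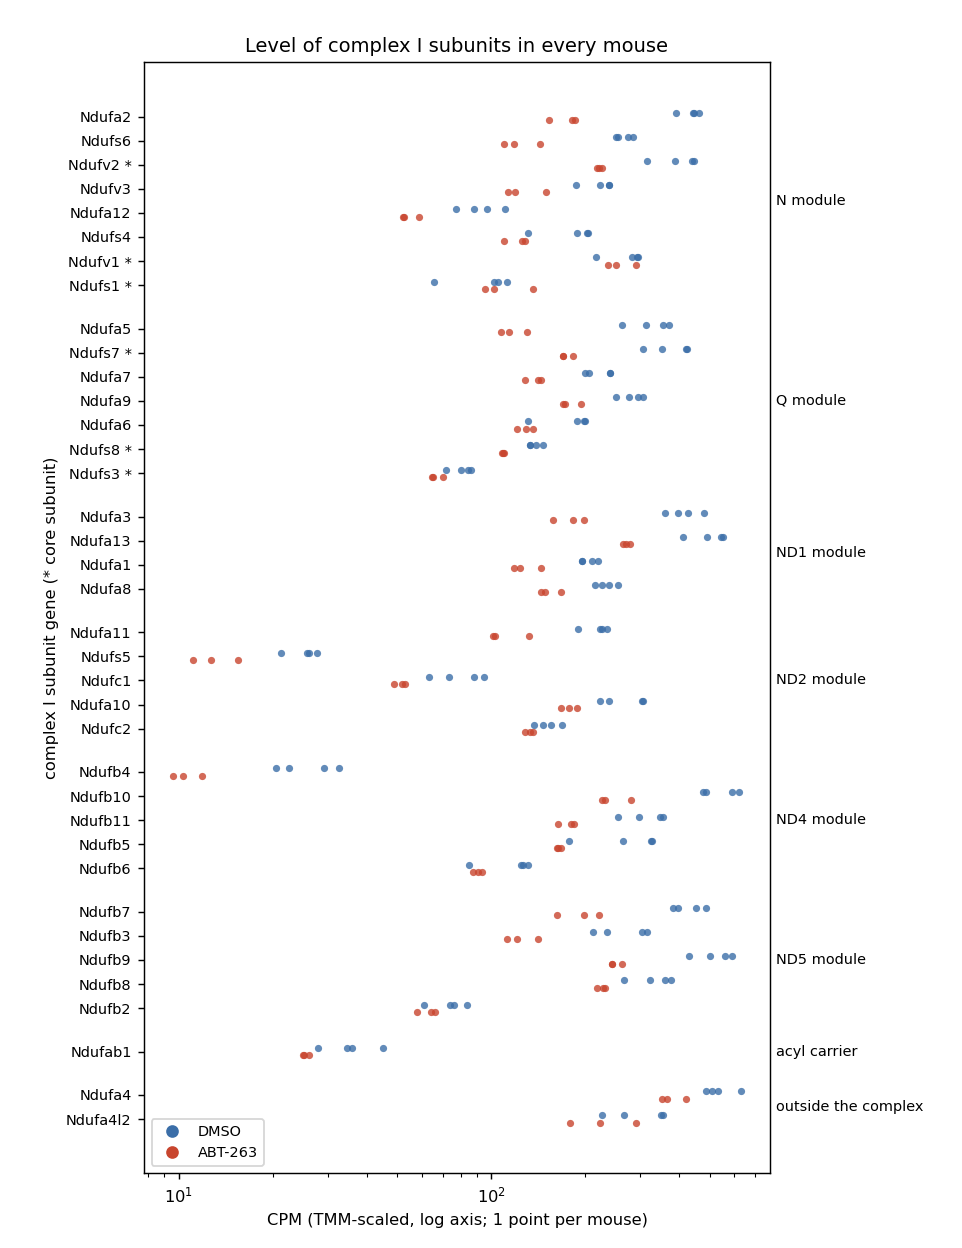
CPM (x axis, log scale) of complex I subunits (y axis, by module, core subunits with an asterisk), with 1 point per mouse, blue for the 4 DMSO mice and red for the 3 ABT-263 mice. The colors mix in Ndufv1, Ndufs1, Ndufa6, Ndufb6, Ndufb2 and Ndufa4l2 and are separate in the other rows.

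The ND1 module joins the arms of the complex. All 4 of its genes fell, without overlap, with a median of -0.78. Ndufa3 was the lowest in fold change. It had 395, 359, 427 and 480 CPM in the DMSO mice and 182, 199 and 158 CPM in the ABT-263 mice. These values were far apart, and the fall was 1.21 ± 0.16 (adjusted p = 0.00628). Ndufa8, a subunit with twin disulfide motifs on the side of the intermembrane space, was the highest of the module in fold change. It had 215, 226, 237 and 254 CPM in the DMSO mice and 148, 167 and 144 CPM in the ABT-263 mice. Every treated mouse was lower, and it fell by 0.61 ± 0.13 (adjusted p = 0.0168). Ndufa13, also known as GRIM-19, had a log2 fold change of -0.88, and Ndufa1, an X-linked single-helix subunit, one of -0.68.

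In the ND2 module 4 of 5 genes fell, with a median of -0.64, and none overlapped. Ndufa11, a membrane subunit at the side where complex I meets complex III, was at 235, 190, 226 and 223 CPM in the DMSO mice and at 102, 132 and 103 CPM in the ABT-263 mice. All treated mice were clearly below, and it fell by 0.96 ± 0.15 (adjusted p = 0.00786). Ndufc2 was the highest in fold change. It had 138, 147, 155 and 168 CPM in the DMSO mice and 136, 129 and 133 CPM in the ABT-263 mice. The groups touched without crossing, and the log2 fold change was -0.20 ± 0.12 (adjusted p = 0.262). Ndufs5 (-0.94), Ndufc1 (-0.64) and Ndufa10 (-0.59), a relative of nucleoside kinases, fell. Ndufs5 shares 31.1% of its 50-base stretches with another gene, BC002163, and was one of the lowest in level (11.1 to 27.8 CPM).

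The ND4 and ND5 modules form the far end of the membrane arm, where the Ndufb subunits lie. In the ND4 module 4 of 5 genes fell, with a median of -0.83. Ndufb4 was its lowest in fold change. The level of Ndufb4 was 20.5, 22.5, 29.1 and 32.6 CPM in the DMSO mice and 10.3, 11.9 and 9.58 CPM in the ABT-263 mice. The groups were apart, and the fall was 1.30 ± 0.20 (adjusted p = 0.00731). Ndufb4 shares 37.0% of its 50-base stretches with copies in the genome, the most of all members, so its level is uncertain. Ndufb6 was the highest of the module in fold change. It had 84.9, 124, 132 and 126 CPM in the DMSO mice and 87.7, 91.0 and 93.8 CPM in the ABT-263 mice. Mouse 480 was below all treated mice and the other controls above them. The log2 fold change of Ndufb6 was -0.36 ± 0.17 (adjusted p = 0.145, and 0.0245 without mouse 480). Ndufb10 (-1.14), which has twin disulfide motifs, Ndufb11 (-0.83), an X-linked subunit, and Ndufb5 (-0.73) fell.

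In the ND5 module 4 of 5 genes fell, and its median of -1.06 was the lowest of the modules. Ndufb7, a subunit with twin disulfide motifs, was at 397, 381, 487 and 452 CPM in the DMSO mice and at 199, 221 and 163 CPM in the ABT-263 mice. No treated mouse came near the controls, and Ndufb7 fell by 1.15 ± 0.17 (adjusted p = 0.00713). Ndufb2 was the highest in fold change. It had 61.1, 73.9, 75.9 and 83.8 CPM in the DMSO mice and 66.3, 58.1 and 64.4 CPM in the ABT-263 mice. Mouse 480 lay among the treated mice, and the log2 fold change was -0.23 ± 0.14 (adjusted p = 0.251). Ndufb3 (-1.10), Ndufb9 (-1.06), another LYR-motif subunit, and Ndufb8 (-0.55) fell. Ndufb9 overlaps Gm49356 on the same strand over 19.5% of its exons, where reads cannot be assigned to one of them.

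The 3 genes outside these modules did not pass the threshold. Ndufab1, the mitochondrial acyl carrier protein, sits in both arms and also serves fatty acid synthesis and the building of iron-sulfur clusters. It had 27.9, 35.9, 34.6 and 45.1 CPM in the DMSO mice and 25.1, 25.0 and 26.2 CPM in the ABT-263 mice, without overlap (log2 fold change -0.50 ± 0.17, adjusted p = 0.0619). Without mouse 480 its adjusted p was 0.0273, and in the fit without trends on length and GC content it was 0.0357. Ndufa4, which is now known as a subunit of complex IV, had 509, 487, 631 and 531 CPM against 353, 422 and 365 CPM. Its groups did not overlap either (log2 fold change -0.51 ± 0.16, adjusted p = 0.0529, and 0.0156 in DESeq2). Ndufa4l2, its paralog induced by hypoxia, had 355, 227, 350 and 267 CPM against 178, 292 and 222 CPM. These values overlapped (log2 fold change -0.38 ± 0.23, adjusted p = 0.256).

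Core and accessory subunits did not have the same share of calls. Of the 28 accessory subunits in the modules, 24 fell, with a median of -0.79, and of the 7 core subunits 3 fell, with a median of -0.33. This difference was not tested. The core subunits made up 19.03% to 21.01% of the summed CPM in the DMSO mice and 21.5% to 24.7% in the ABT-263 mice, and the groups did not overlap. Ratios of CPM between subunits of the same module were compared as well. The ratio of Ndufv2 to Ndufv1 was 1.32 to 1.59 in the DMSO mice and 0.765 to 0.959 in the ABT-263 mice. For Ndufs7 to Ndufs8 it was 2.31 to 3.04 and 1.55 to 1.66, for Ndufa5 to Ndufs3 3.68 to 4.61 and 1.53 to 2.00, and for Ndufa2 to Ndufs1 3.94 to 5.94 and 1.12 to 1.94. The ratio of Ndufs1 to Ndufv1, neither of which passed the threshold, was 0.304 to 0.384 and 0.406 to 0.471. These pairs were chosen after their values were seen and are descriptions.

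**Figure D3:**
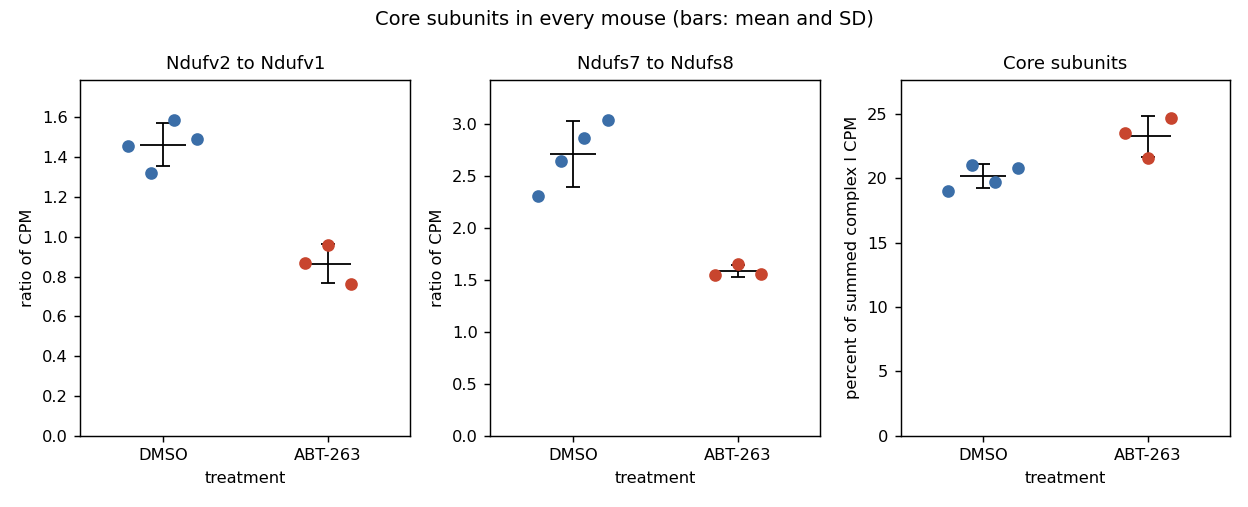
Ratio of CPM of Ndufv2 to Ndufv1 (left) and of Ndufs7 to Ndufs8 (middle), and core subunits as a percent of the summed complex I CPM (right), by treatment (x axis). Points are mice and bars the mean and SD. The ratios lie lower and the percent higher in the 3 ABT-263 mice, without overlap.

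Levels were compared between genes per kb of the principal transcript. In the DMSO mice the mean ran from 10.3 CPM per kb for Ndufab1 and 16.9 for Ndufb2 to 761 for Ndufa2, 807 for Ndufa3 and 884 for Ndufa4. The low end depends on the long transcripts annotated for Ndufab1 and Ndufb2 (3479 and 4371 bases, with coding parts of 468 and 315 bases). Among the core subunits, Ndufs7 stood at 382 CPM per kb, and Ndufs1, the lowest, at 36.2. Of the 19 members with the higher DMSO level per kb, 16 fell, 9 of them over 2-fold, and the median log2 fold change was -0.96. Among the 19 with the lower level, 11 fell, 1 over 2-fold, and the median was -0.59. Spearman's rho between the log2 fold change and the DMSO level per kb was -0.48 across the 38 genes, which share the libraries and the DMSO values, and it is a description. The order of the levels was nearly kept between the groups (rho = 0.96).

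The members are short genes. Their median exon length was 1532 bases, against 3695 bases over the genes tested, and coding lengths ran from 210 to 2181 bases. Spearman's rho between the log2 fold change and the coding length was 0.24 over the 38 genes, and between it and the transcript length 0.39. In the fit without trends on length and GC content, 28 genes fell and the median was -0.71. Of the 30 members with under 10% of their 50-base stretches shared with other genes, 21 fell, with a median of -0.67. The 5 members with the letters AAGATGGCG at the start codon all fell, with log2 fold changes from -1.11 (Ndufs7) to -0.58 (Ndufs4), and of the 28 others with a promoter 19 fell. Their medians were -0.66 and -0.71.

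The pseudogenes and -ps copies left out by the rule were looked at beside their parents. Ndufb1-ps, which is a noncoding RNA in GENCODE M21 and the gene of the ND4-module subunit Ndufb1 in RefSeq, had 71.0 to 92.3 CPM in the DMSO mice and 56.9 to 69.8 CPM in the ABT-263 mice. The groups did not overlap, and the log2 fold change was -0.43 ± 0.14 (adjusted p = 0.0572). The processed pseudogenes Ndufs6b (-0.87, adjusted p = 0.00628) and Ndufab1-ps (-0.99, adjusted p = 0.0154) fell. Ndufa11b (-0.99, adjusted p = 0.0613) and Ndufb4c (0.12, adjusted p = 0.772) did not pass the threshold and stayed at or below 3.07 CPM. Reads of a pseudogene and of its parent can be confused.

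The proteins that build complex I were set beside its subunits. Of the 17 assembly factors tested, 3 fell (17.6%), near the 11.7% of all genes tested. None of the factors rose in edgeR or DESeq2, and 1 of them was higher at an unadjusted p of 0.05 in edgeR. Their median was -0.12, and their summed CPM overlapped between the groups (430 to 488 in the DMSO mice and 399 to 451 in the ABT-263 mice). Those that fell were Ndufaf8 (-0.94, adjusted p = 0.00779), Dmac1 (-0.47, adjusted p = 0.0450) and Ndufaf3 (-0.45, adjusted p = 0.0311). Acad9, an assembly factor related to acyl-CoA dehydrogenases, had the highest log2 fold change (0.49, adjusted p = 0.153). Leaving out any mouse but 480 reduced the 3 calls to 1, as did testing every gene with a count.

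Among 9 regulators of mitochondrial genes, 1 fell and 3 rose, while 11.7% of all genes tested fell and 12.4% rose. Ppargc1b, a coactivator of mitochondrial biogenesis, was at 18.2, 18.2, 22.0 and 22.1 CPM in the DMSO mice and at 9.19, 9.10 and 8.08 CPM in the ABT-263 mice. It fell by 1.19 ± 0.15 (adjusted p = 0.00622), with no overlap. For Ppargc1a, its relative, at 2.90 to 9.10 CPM, the log2 fold change was -0.73 (adjusted p = 0.135). Gabpa (0.80) and Yy1 (0.61), which encode factors that bind promoters of respiratory chain genes, and Gabpb1 (0.51) rose. Nrf1 (-0.17), Esrra (-0.12), Esrrg (0.05) and Tfam (0.26) did not pass the threshold. Of 16 mitochondrial genes outside the respiratory chain, which stand for import, membrane and matrix functions, Phb fell (-0.51), Timm23 rose (1.09), and the median was -0.19.

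The other complexes of oxidative phosphorylation were counted in the same fit. In complex II none of 4 genes passed, although 2 were lower at an unadjusted p of 0.05 and 1 in DESeq2, and the median was -0.37. Of the tested genes, 5 of 9 fell in complex III (55.6%, median -0.66) and 9 of 13 in complex IV (69.2%, median -0.81). Among paralogs in complex IV, Cox6a2 (-1.22), Cox7a1 (-1.22) and Cox8b (-1.17) fell. Their counterparts Cox6a1 (-0.64), Cox7a2 (-0.26) and Cox8a (-0.11) did not pass the threshold. In complex V 8 of 14 fell (57.1%, median -0.67). Over all genes tested, 11.7% fell, and none of these subunits rose in edgeR. In DESeq2 1 gene of complex V rose, and at an unadjusted p of 0.05 in edgeR 1 gene each of complexes IV and V was higher. The lowest and highest log2 fold changes were -0.53 (Sdhc) and 0.02 (Sdha), -1.07 (Uqcrh) and 0.26 (Uqcrc2), -1.22 (Cox7a1) and 0.43 (Cox7b), and -1.20 (Atp5g2) and 0.64 (Atp5j). Complex I had the largest share of calls (71.1%), followed by complex IV (69.2%), and the differences between complexes were not tested.

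**Figure D4:**
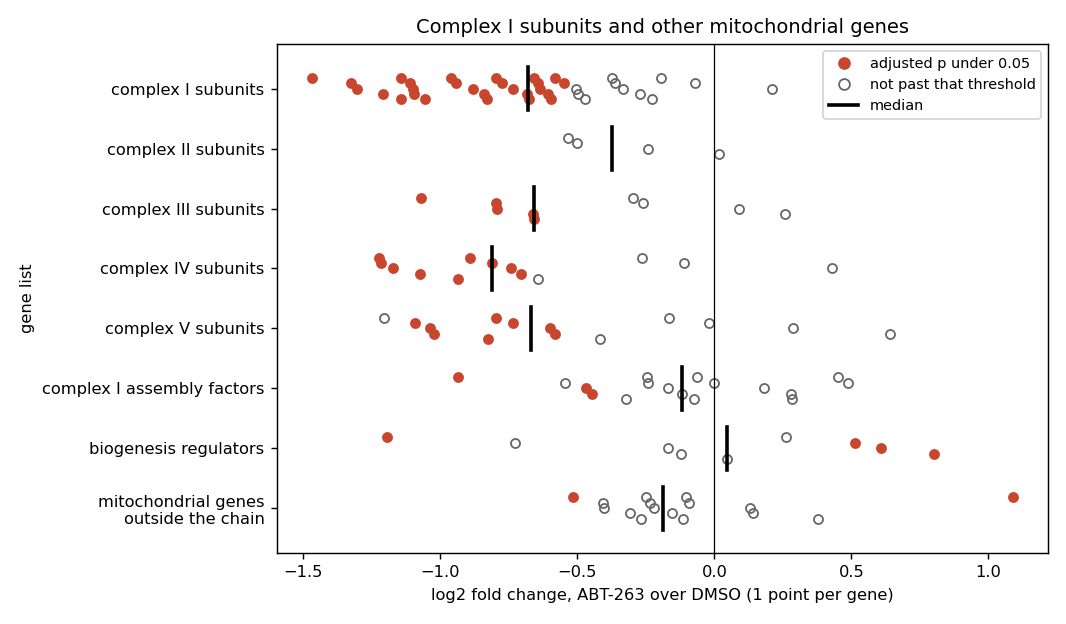
Log2 fold change (x axis, ABT-263 over DMSO, edgeR) of each gene in the subunits of complexes I to V and in 3 other mitochondrial lists (y axis). Filled points have an adjusted p under 0.05, and black bars are medians. Complex I has its median at -0.68 and the assembly factors at -0.12.

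Markers of several cell types were examined beside these results. Skeletal muscle markers, which include the fast isoforms of troponin and myosin, summed to 47798, 79853, 68660 and 92383 CPM in DMSO mice 480 to 483 and to 43346, 34538 and 47581 CPM in ABT-263 mice 476 to 478. Of these 18 genes, 6 fell (33.3%, against 11.7% of all genes tested). None rose, at an unadjusted p of 0.05 or in DESeq2 either, and the median was -0.91, from Pvalb (-3.33) to Myh7 (0.48). The mean of the sum in the treated mice was 57.9% of that in the controls, against 58.8% for complex I. As a percent of the muscle sum, complex I was at 11.9% to 18.4% in the DMSO mice and 12.1% to 18.1% in the ABT-263 mice, which overlapped. DMSO mouse 480 and ABT-263 mouse 478 had nearly equal muscle sums (47798 and 47581 CPM), while their complex I sums were 8797 and 5779 CPM. Single muscle markers differed between mice 480 and 478 in both directions, such as Tnnc2 (6537 and 3221 CPM) and Acta1 (9380 and 12526 CPM). Whether muscle content accounts for the complex I values was not tested. Within the treated mice, 477 had the lowest muscle sum and the highest complex I sum.

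**Figure D5:**
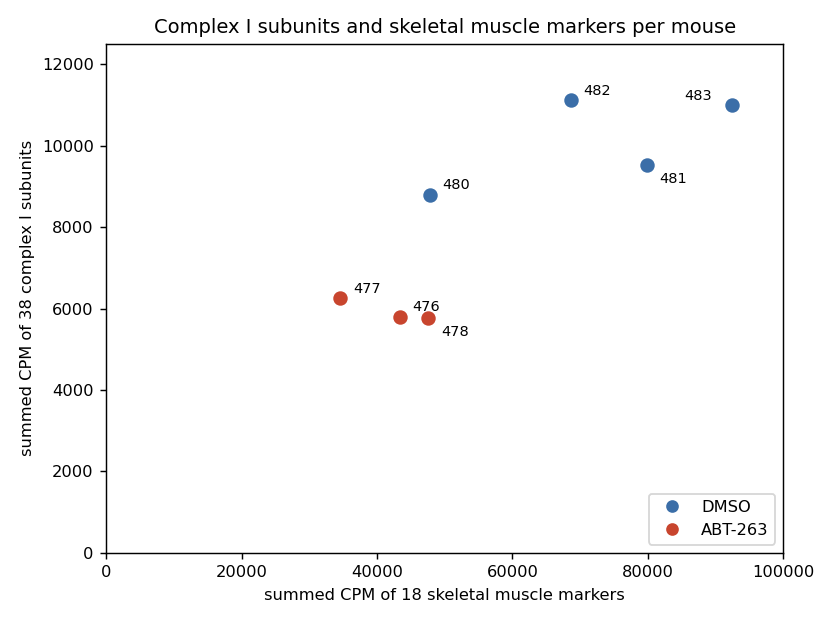
Summed CPM of the 38 complex I subunits (y axis) against the summed CPM of 18 skeletal muscle markers (x axis), 1 point per mouse with its number. Muscle sums run from 47798 to 92383 CPM in the DMSO mice and from 34538 to 47581 CPM in the ABT-263 mice. Complex I sums run from 8797 to 11113 CPM and from 5779 to 6251 CPM.

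Leukocyte and fibroblast markers moved the other way. Over all genes tested, 12.4% rose. All 5 macrophage markers rose, from Cd68 (1.26) to Lyz2 (2.43), and their sum was 173 to 450 CPM in the DMSO mice and 627 to 2227 CPM in the ABT-263 mice. Of the 4 neutrophil markers tested 2 rose (sums of 99.7 to 1820 and 5095 to 8086 CPM, from Cxcr2 at 2.29 to Csf3r at 3.73), and of 5 fibroblast markers 3 rose (1867 to 2589 and 3426 to 4851 CPM, from Dcn at 0.48 to Pdgfra at 1.72). Of the keratinocyte markers (6 tested, from Krt5 at -0.23 to Krt1 at 0.26), the adipocyte markers (6 tested, from Lep at -0.23 to Adipoq at 1.85) and the hair follicle markers (5 tested, from Krt35 at -2.68 to Tchh at -1.16), none passed the threshold in either direction in edgeR. At an unadjusted p of 0.05 edgeR had 2 adipocyte markers higher and 1 hair follicle marker lower, and DESeq2 called 1 of each. The sums overlapped for keratinocyte markers (21212 to 51511 CPM in the DMSO mice and 18431 to 51830 CPM in the ABT-263 mice) and adipocyte markers (738 to 2418 and 872 to 3296 CPM). Hair follicle markers summed to 1998 CPM in DMSO mouse 481, 434 CPM in ABT-263 mouse 478 and 9.88 to 32.6 CPM in the other mice. No marker was at 0 in every mouse. The part of these markers in the complex I result was not tested.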

How the data were processed

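Dorsal skin of 7 mice was sequenced, 4 treated with DMSO and 3 with ABT-263. Per the labels and the methods, the authors aligned reads to mm10 with STAR 2.7.9a and counted uniquely aligned proper pairs on the same strand per Ensembl gene with featureCounts (Subread 1.6.2), without mitochondrial genes. They deposited these counts unnormalized, along with a table of log2-scale values, which the authors made from them by DESeq2 1.23.10's variance-stabilizing transformation and which served as an alternative. Columns of other samples numbered 0.

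Gene symbols, types, positions and lengths came from GENCODE M21 on GRCm38, which holds 55190 of the 55450 identifiers, and promoters from RefSeq. Shared stretches are the 50-base stretches of a gene's principal transcript that also occur in transcripts of another gene. Counts were tested in R 4.3.3 by quasi-likelihood in edgeR 4.0.16 (filterByExpr, TMM, robust, no covariate). Alternatives were the Wald test of DESeq2 1.42.0, its size factors in edgeR, a fit of every gene with a count, a minimum of 10 counts per sample, a fit of protein-coding genes alone, removal of length and GC trends (mgcv 1.9.3), limma 3.58.1 on the transformed values, counts thinned to the smallest library, and leaving out each mouse. On simulated data for this comparison, with 200 of 17959 genes changed, edgeR recovered 24% of genes changed 2-fold and 91% of those changed 4-fold, and 5.74% of its calls were false. With a trend on gene length added to the simulation, it recovered 40% and 95%, and 74.3% of its calls were false, against 8.53% once trends on length and GC content were removed. Without that trend DESeq2 recovered 52% and 99%, and 26.3% of its calls were false. With it, DESeq2 recovered 61% and 99%, and 86.1% of its calls were false. The size of that trend was set for the simulation and was not taken from these data. Over 17949 genes of the data, Spearman's rho between the log2 fold change and the exon length was 0.072.

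The members, modules and gene lists were chosen with earlier results of these data known. Values in every mouse are given for the core subunits, the lowest and the highest of each module by fold change, Ndufab1, Ndufa4 and Ndufa4l2. The other members are given by fold change (1 gene is counted but not reported here), and lists by counts, medians and extremes. Ppargc1a, Ndufb1-ps, the pseudogenes and the regulators that did not pass were added after their values were seen. Each library is 1 mouse by its number in the labels. The study's assays other than sequencing are not analysed here.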

Additional observations from a re-analysis of the deposited data

Results flagged for a closer look

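In 68 measures of the 4 DMSO mice (each member's CPM, and sums, ratios and shares over members and lists), the gap between an extreme mouse and the nearest other, divided by the range of the group, was compared with Dixon's 95% critical value. It was exceeded in 3, where chance alone flags about 1 in 20 groups, or 3.4 here. Ndufa6 had a gap of 0.830, since DMSO mouse 480 was at 131 CPM and the other controls at 188 to 199 CPM. Ndufb6 had one of 0.846, with mouse 480 again the lowest (84.9 CPM, the others 124 to 132 CPM). The sum of the hair follicle markers had a gap of 0.997, with mouse 481 at 1998 CPM and the other controls at 15.6 to 21.3 CPM. Groups of 3 mice were not examined.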

How the results depend on the processing

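In every setting the median log2 fold change of the 38 subunits stayed negative and none of them rose past the threshold. The number that fell was 23 to 29 in the 8 settings that kept every mouse and 17 (without ABT-263 mouse 478) to 30 (without DMSO mouse 480) with a mouse left out, of 27. Over all genes of each fit, the share that fell was 4.94% to 12.7% and 4.17% to 11.9%. The number without overlap was 31 to 35, of 32. In the main fit 18.4% of all genes tested were lower without overlap. That share was not taken in the other settings, so this range describes the members alone. The number of assembly factors that fell was 1 with every gene with a count tested, and 1 to 3 with a mouse left out, of 3. The cause was not tested. The fits with a mouse left out also held fewer mice, and without DMSO mouse 480 the number of assembly factors stayed at 3. The log2 fold change of Ndufv1 lay between -0.17 (without DMSO mouse 480) and 0.016 (without ABT-263 mouse 477) with a mouse left out, from -0.07, and no other member changed sign. In the settings that kept every mouse, 5 of the 27 lost their call in at least 1, among them Ndufs4 in 3 (adjusted p up to 0.0683) and Ndufb8, Ndufa10 and Ndufb5 in 1 each (up to 0.0752). Of the 11 not called, 5 gained a call in at least 1 setting (Ndufa4, Ndufs8, Ndufab1, Ndufa6 and Ndufb6). No paired analysis was possible because the groups share no replicate numbers. Every member had 289 or more counts in every mouse, and the groups held 4 and 3 mice. A member that was not called may still have moved.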
